A study of Mus musculus with 6 samples.

Results

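Mib1 and 9 other genes of the Notch pathway were followed in mouse tibialis anterior muscle with and without Dock3. They are 10 of the 54393 genes in the deposited table: the Mindbomb ubiquitin ligases Mib1 and Mib2, the ligands Dll1, Dll4, Jag1 and Jag2, the receptors Notch1, Notch2 and Notch3, and the target gene Hes1. All 10 were found by their GENCODE M21 symbols. Mib1 was picked because it rose strongly between the genotypes, so its values are given as a description with no test. The other 9 were taken for their place in the pathway, with earlier results of these data known. The samples were tibialis anterior muscles of adult mice, 3 labelled wild type (WT) and 3 labelled Dock3 KO, a knockout of an exchange factor that activates the small GTPase Rac. The titles of the WT samples name C57 mice. The knockout allele, the strain of the Dock3 KO mice and the sex of the animals are not given in the sources used here. The labels count muscles and do not say whether each came from its own mouse, so a p-value measures the spread between these samples.

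Notch is a receptor that is switched on by a ligand on a neighbouring cell. Mindbomb proteins attach ubiquitin to the ligand, and the uptake of the ligand that follows pulls on the receptor, which is then cut by ADAM proteases and by gamma-secretase. The freed intracellular part joins the DNA-binding protein Rbpj and Mastermind in the nucleus and switches on genes of the Hes and Hey families. In skeletal muscle the pathway is known for keeping satellite cells, the muscle stem cells, quiescent, and Mib1 in fibres has been described as part of the signal that they receive. Notch signalling also patterns arteries and supports the mural cells of vessels, so whole muscle carries pathway RNA from several cell types.

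The labels were checked with Dock3 itself, which stood at 169, 161 and 118 normalized counts in the WT muscles (replicates 1, 3 and 4), against 22.4, 1.78 and 1.54 in the Dock3 KO muscles (replicates 1, 2 and 3). Fibre genes such as Acta1 and Ckm were abundant in every sample, as the tissue label says. Normalized counts summed to between 23520223 and 33393950 per sample. A pair of RNAs, Gm42418 and Lars2, took 17.9% and 20.3% of the sum in Dock3 KO replicates 1 and 2 and between 3.00% and 3.64% in the other 4 samples, so some results are also given without those 2 libraries. Genotypes were compared on log2(normalized count + 1) with limma over the 16031 genes with a mean of at least 10. All adjusted p-values below are limma p-values adjusted by the Benjamini-Hochberg method over those 16031 genes, and "past the threshold" means an adjusted p under 0.05.

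Mib1 RNA was about 6 times as abundant in Dock3 KO muscle, and it was the only gene of the 10 whose groups did not overlap. Mib1 encodes the Mindbomb ligase that is needed for ligand activity in most tissues. It stood at 1091, 1068 and 959 normalized counts in the WT muscles (replicates 1, 3 and 4), against 6391, 6876 and 5313 in the Dock3 KO muscles (replicates 1, 2 and 3). The lowest Dock3 KO sample thus lay far above the highest WT sample, and both groups were tight, with a coefficient of variation of 6.78% in WT and 12.9% in Dock3 KO. The mean rose from 1039 ± 70.4 to 6193 ± 800 (SD, n = 3 each), a ratio of 5.96 and a log2 difference of 2.57. Relative to the WT mean, the Dock3 KO replicates stood at 6.15, 6.62 and 5.11. These are the values by which Mib1 was chosen. Of all 16031 genes tested, 0.443% were past the threshold and higher in Dock3 KO. Ordered from the highest log2 difference, Mib1 was number 53 of the 16031 genes tested and number 31 of the 13437 protein-coding ones. These ranks use the difference by which Mib1 was chosen, so they only describe that choice. With Dock3 KO replicates 1 and 2 left out, which leaves 1 Dock3 KO sample, the log2 difference of Mib1 was 2.36.

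**Figure D1:**
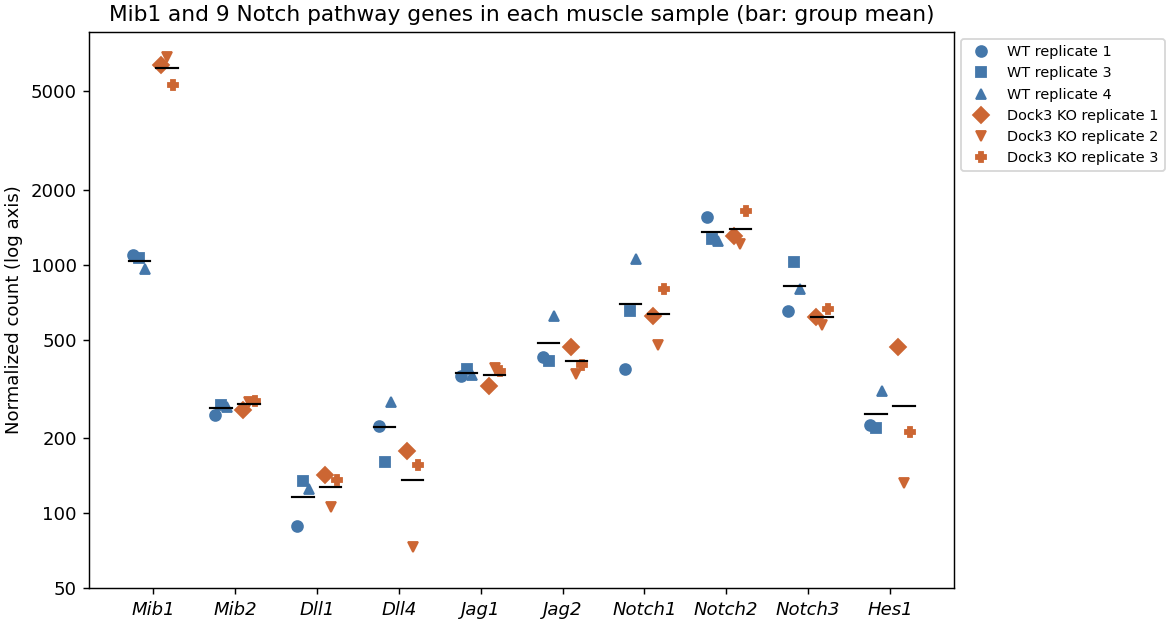
Normalized counts (log axis) of the 10 genes in each of the 6 samples, with blue symbols for WT, orange symbols for Dock3 KO and a bar for each group mean. Mib1 lies between 959 and 1091 in WT and between 5313 and 6876 in Dock3 KO, while the groups of each of the other 9 genes overlap.

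None of the other 9 genes was past the threshold, against 1.03% of all genes tested (0.443% higher and 0.586% lower), and the groups overlapped in all 9, whereas in 16.2% of all genes tested they did not overlap (Dock3 KO above WT in 7.6% and below in 8.65%). An unadjusted limma p under 0.05 was found for 2 of the 9, Dll4 and Notch3, both lower in Dock3 KO, where 10.5% of all genes tested reached that level. The median log2 difference of the 9 was -0.05 and that of all genes tested -0.01. None of the 9 passed with any single sample left out.

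Mib2, the second Mindbomb ligase, is related to Mib1 and also acts on Notch ligands. It stood at 249, 274 and 269 normalized counts in the WT muscles, against 261, 281 and 282 in the Dock3 KO muscles. The samples of both genotypes were thus interleaved within a narrow range. The log2 difference was 0.06, with a 95% interval of -0.28 to 0.40 (limma adjusted p 0.945). Per kilobase of merged exons, the level of Mib1 was 1.54 to 1.89 times that of Mib2 in the WT samples and 8.13 to 10.6 times in the Dock3 KO samples. Mib1 thereby went from between 60.7% and 65.4% of the RNA of both Mindbomb genes per length to between 89.0% and 91.4%. These ratios and shares depend on the length used. Per kilobase of the longest transcript, the means of Mib1 and Mib2 were 102 and 72.5 in WT, against 605 and 75.5 in Dock3 KO.

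Other proteins that act on Notch ligands or their uptake were measured as well. Neurl1a, Neurl1b and Neurl3 encode Neuralized-type ligases, Epn1 and Epn2 epsins that bind ubiquitinated cargo, and Dnm1 and Dnm2 dynamins that cut off vesicles. With Mib2 these are 8 genes, and 0 of them passed the threshold or an unadjusted limma p of 0.05. Their log2 differences lay between -0.27 and 0.09. Neurl1b, with means of 132 ± 40.4 for WT, against 108 ± 23.7 for Dock3 KO (SD, n = 3 each), had the lowest of these differences. Dnm1 had the smallest p of the 8, with means of 529 ± 37.6 and 446 ± 84.4 (SD, n = 3 each) and a limma adjusted p of 0.670.

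Mib1 (ENSMUSG00000024294) is a protein-coding gene with coordinates 10725548 to 10818704 on chromosome 18, plus strand (GENCODE M21, GRCm38), and 6 annotated transcripts. The values of the surroundings show whether other RNA of the locus moved with it. The gene body holds 5 other annotated genes, 2 on its own strand and 3 on the opposite strand. The most abundant is Mir133a-1hg on the opposite strand, the host transcript of the muscle microRNAs miR-1a and miR-133a. It stood at 252, 249 and 268 normalized counts in the WT muscles, against 214, 288 and 256 in the Dock3 KO muscles, a log2 difference of -0.03 with a 95% interval of -0.41 to 0.35 (limma adjusted p 0.978). The hairpins were low, with Mir133a-1 between 5.33 and 17.0 normalized counts and Mir1a-2 between 0 and 5.32 over the 6 samples. Mir1b, on the strand of Mib1, was at 0 in all 3 WT muscles and at 1.37, 2.98 and 2.43 in the Dock3 KO muscles, so its groups did not overlap, at values below the filter. Whether counting used strand is not given in the sources used here. The Mir133a-1hg value was 23.1% to 28.0% of the Mib1 value in the WT muscles and 3.36% to 4.82% in the Dock3 KO muscles. The blastn search found no near-identical transcript of another gene for Mib1, nor for any of the other 9 genes.

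Within 1 Mb of Mib1 the annotation lists 39 other genes, of which 14 were tested. None of the 14 was past the threshold. An unadjusted limma p under 0.05 was found for 4 of the 14 (Colec12, Gm26244, Greb1l and Abhd3), against 10.5% of all genes tested. The groups did not overlap for 4 of the 14, among them Colec12, Esco1 and Abhd3, against 16.2% of all genes tested. The nearest tested gene upstream is Abhd3, which encodes a phospholipase of the abhydrolase family and is read in the other direction. It stood at 38.8, 45.8 and 31.8 normalized counts in the WT muscles, against 13.8, 15.0 and 25.1 in the Dock3 KO muscles, and no Dock3 KO sample reached the lowest WT sample. Its log2 difference was -1.10 (limma adjusted p 0.326). Snrpd1, a core protein of the spliceosome, had a log2 difference of -0.17. Esco1, a cohesin acetyltransferase, stood at 356, 377 and 417 in the WT muscles, against 443, 495 and 461 in the Dock3 KO muscles. All Dock3 KO values of Esco1 lay above WT, with a log2 difference of 0.29 and a limma adjusted p of 0.537. Greb1l varied most, from 10.1 to 251 normalized counts among the WT samples alone. Its Dock3 KO values lay between 11.3 and 17.1, within the WT range, with a log2 difference of -2.28 and a limma adjusted p of 0.412. The small nuclear RNA gene Gm26244, at 43.2, 190 and 41.9 in the WT muscles, against 187, 229 and 335 in the Dock3 KO muscles, had the highest log2 difference of the 14, with groups that overlapped and a limma adjusted p of 0.205. Of the other tested neighbours, Colec12, Thoc1, Usp14, Gata6, Rbbp8, AC090479.2 and Mir133a-1 had log2 differences between -0.67 and 0.88, with limma adjusted p-values of 0.442 or more.

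**Figure D2:**
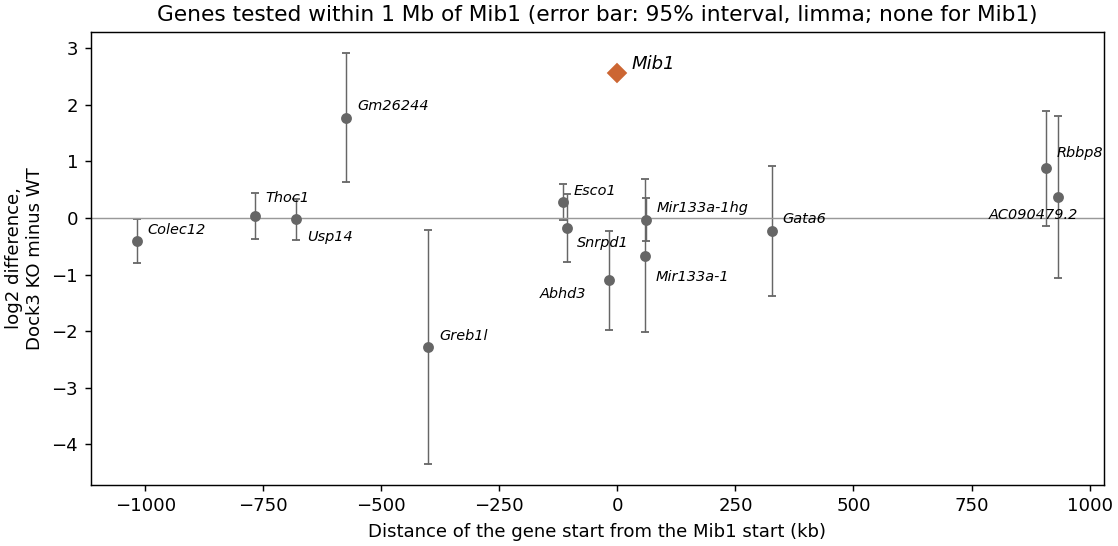
Log2 difference (Dock3 KO minus WT) of the tested genes within 1 Mb of Mib1 (1 of the 14 is not drawn) against the distance of each gene's start from the Mib1 start in kb, with 95% limma intervals (n = 3 per genotype). Mib1, drawn without an interval because it was chosen on this contrast, stands at 2.57, and the neighbours range from Greb1l at -2.28 to Gm26244 at 1.77.

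Among the ligands, Jag1 was the steadiest and Dll4 the most variable. Jag1, the Jagged ligand with wide expression in vessels, stood at 356, 381 and 360 normalized counts in the WT muscles, against 324, 386 and 374 in the Dock3 KO muscles. Its groups overlapped almost fully, and the 95% interval of the log2 difference, -0.35 to 0.31, is narrow. Dll1, a Delta ligand with a role in myogenic cells, stood at 88.7, 134 and 125 in the WT muscles, against 142, 106 and 136 in the Dock3 KO muscles. Its log2 difference was 0.15 with an interval of -0.38 to 0.68 (limma adjusted p 0.898), and WT replicate 1 was the lowest of all 6 samples. Jag2 stood at 425, 408 and 624 in the WT muscles, against 468, 363 and 396 in the Dock3 KO muscles. Its high WT mean came from replicate 4, and the log2 difference was -0.23 with an interval of -0.66 to 0.20 (limma adjusted p 0.761).

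Dll4, a Delta ligand of arterial and capillary endothelium, stood at 224, 161 and 281 normalized counts in the WT muscles. The values of the Dock3 KO muscles (replicates 1, 2 and 3) were 178, 73.1 and 156. Dock3 KO replicate 2 was lowest, while Dock3 KO replicate 1 lay above WT replicate 3, so the groups overlapped. The mean was 222 ± 60.0 for WT, against 136 ± 55.5 for Dock3 KO (SD, n = 3 each), with a log2 difference of -0.77, a 95% interval of -1.52 to -0.01 and a limma adjusted p of 0.466. With each sample left out in turn, the log2 difference of Dll4 ranged from -1.01 to -0.37. In bulk muscle, fewer cells of a type and less RNA per cell cannot be told apart. The summed level of 10 endothelial markers, all 10 tested, ran from 5678 to 7516 normalized counts in WT and from 5641 to 7038 in Dock3 KO, and 0 of them passed the threshold. The sum of 6 arterial markers ran from 1434 to 1734 in WT and from 1266 to 1482 in Dock3 KO, with 5 of the 6 below 0 in log2 difference and 0 past the threshold. Dock3 KO replicate 2 had the lowest sum of both lists and the lowest Dll4. WT replicate 1 had nearly the same endothelial sum, 5678 against 5641, with Dll4 at 224 against 73.1. The part of these cells in the Dll4 values was not tested.

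The receptors were not past the threshold either. Notch2 stood at 1560, 1270 and 1246 normalized counts in the WT muscles, against 1311, 1211 and 1650 in the Dock3 KO muscles. The highest and the lowest Notch2 value both belonged to Dock3 KO, and the log2 difference was 0.03 with an interval of -0.32 to 0.38 (limma adjusted p 0.976). Notch1, the receptor of satellite cells and endothelium, stood at 381, 648 and 1056 in the WT muscles, against 620, 476 and 801 in the Dock3 KO muscles. The WT samples alone spanned all Dock3 KO values, with a coefficient of variation of 48.9%, and the interval of the log2 difference was correspondingly wide, from -0.78 to 0.68.

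Notch3, a receptor of vascular mural cells, stood at 650, 1024 and 800 normalized counts in the WT muscles, against 614, 570 and 661 in the Dock3 KO muscles. Dock3 KO values lay close together and below all WT values except that of replicate 1, which Dock3 KO replicate 3 exceeded. The mean was 825 ± 188 for WT, against 615 ± 45.4 for Dock3 KO (SD, n = 3 each), which is a log2 difference of -0.40 with a 95% interval of -0.79 to -0.01 and a limma adjusted p of 0.463. Notch3 was highest in WT replicate 3, where the contractile mural genes Acta2, Myh11 and Tagln stood at 2371, 1266 and 1158. In the other 5 samples they lay between 487 and 686, between 349 and 547 and between 215 and 316. These 3 were picked from the 9 mural markers after their values were seen; 4 of the 9 were highest in WT replicate 3, and Rgs5 was at its lowest there. With each sample left out in turn, the log2 difference of Notch3 ranged from -0.56 (without WT replicate 1) to -0.23 (without WT replicate 3). The summed level of the 9 mural markers ran from 16680 to 20004 in WT and from 18630 to 21043 in Dock3 KO, and 0 of the 9 passed the threshold. The part of these cells in the Notch3 values was not tested. Notch4, an endothelial receptor of the wider list, stood at 159, 189 and 595 in the WT muscles, against 141, 202 and 247 in the Dock3 KO muscles (limma adjusted p 0.803), and its high WT mean came from replicate 4.

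Hes1 encodes a transcriptional repressor and is the classical direct target of Notch. It stood at 225, 219 and 310 normalized counts in the WT muscles (replicates 1, 3 and 4), against 467, 132 and 212 in the Dock3 KO muscles (replicates 1, 2 and 3). The Dock3 KO group thus held both the highest and the lowest sample, and its coefficient of variation was 64.6% against 20.0% in WT. Both samples, Dock3 KO replicates 1 and 2, are the libraries rich in Gm42418 and Lars2. The part of the libraries in the Hes1 values was not tested. The log2 difference was -0.07 with a 95% interval of -0.93 to 0.78 (limma adjusted p 0.976). The sign of the Hes1 difference depended on the samples. It was 0.34 without Dock3 KO replicate 2 and -0.57 without Dock3 KO replicate 1.

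Other target genes were read for the same samples. Heyl, a target in mural and myogenic cells, stood at 131, 163 and 137 normalized counts in the WT muscles, against 229, 92.1 and 139 in the Dock3 KO muscles. Nrarp, a feedback inhibitor that binds the Notch intracellular part, stood at 88.5, 113 and 141 in the WT muscles, against 265, 85.5 and 130 in the Dock3 KO muscles. As for Hes1, the highest of the 6 samples was Dock3 KO replicate 1 and the lowest Dock3 KO replicate 2. These are again the libraries rich in Gm42418 and Lars2. Hey1, at 110, 87.1 and 155 in the WT muscles, against 120, 85.8 and 99.0 in the Dock3 KO muscles, did not have its highest value in Dock3 KO replicate 1. Hey2 was low, between 11.7 and 30.2 in WT and between 12.2 and 22.7 in Dock3 KO. Of the 5 targets tested, 0 passed the threshold or an unadjusted limma p of 0.05, and their log2 differences ran from -0.38 for Hey2 to 0.36 for Nrarp. Hes5 and Hes7 were below the filter, with no sample above 2.90 and 10.5 normalized counts.

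Dock3 KO replicate 1, where Hes1, Heyl and Nrarp were highest, also had the highest level of the endothelial genes Cldn5 (256 normalized counts, with 57.3 to 129 elsewhere), Kdr (941 against 439 to 773) and Egfl7 (635 against 276 to 552). These are 3 of the 10 endothelial markers, picked after their values were seen; of the other 7 none was highest in that sample, and Vwf was at its lowest there. It also had the highest sum of the 5 erythrocyte markers, 97653 against 28542 to 54916 elsewhere. The endothelial sum of that sample, 7038, lay within the WT range. The part of these cells in the target values was not tested.

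**Figure D3:**
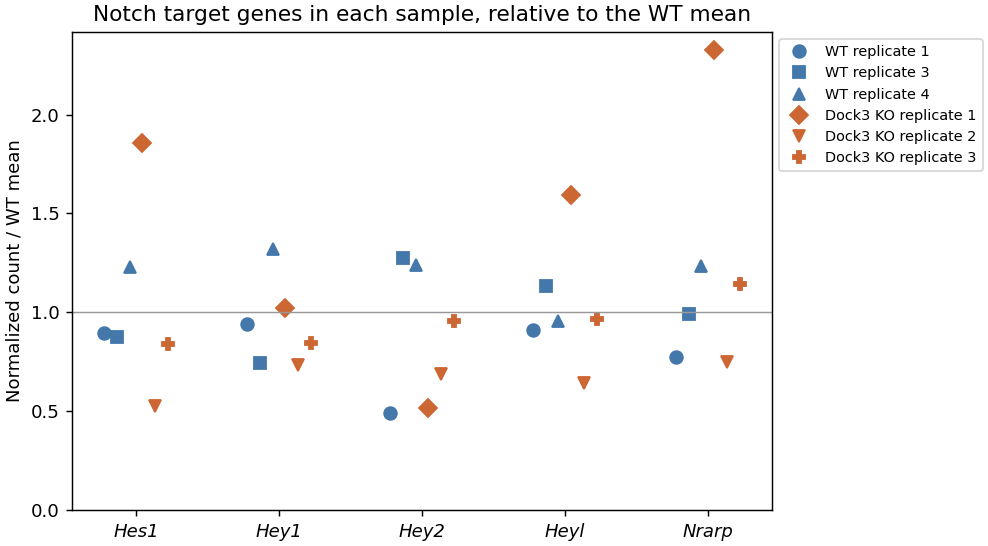
Normalized counts of 5 Notch target genes in each sample, divided by the mean of the 3 WT samples, with blue symbols for WT and orange symbols for Dock3 KO. Dock3 KO replicate 1 is the highest and Dock3 KO replicate 2 the lowest sample for Hes1, Heyl and Nrarp, and the genotypes overlap for all 5 genes.

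The letters GTGGGAA are those read by Rbpj, the DNA-binding protein of the pathway. They are shown here for Hey2 and Hes5, targets whose promoter windows hold them in both orientations. Both windows are from RefSeq (GRCm38.p6), written 5′ to 3′ on the strand of the gene and starting 250 bases before its start, and capitals mark the letters on either strand. The Hey2 window is chr10:30842781-30843033 on the minus strand and runs 3 bases into the transcript, and the Hes5 window is chr4:154960673-154960922 on the plus strand.
Hey2: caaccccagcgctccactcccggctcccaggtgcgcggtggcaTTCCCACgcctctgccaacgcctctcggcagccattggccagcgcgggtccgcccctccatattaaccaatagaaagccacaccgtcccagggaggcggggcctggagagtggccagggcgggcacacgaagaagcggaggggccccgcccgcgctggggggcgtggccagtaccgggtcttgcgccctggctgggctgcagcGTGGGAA
Hes5: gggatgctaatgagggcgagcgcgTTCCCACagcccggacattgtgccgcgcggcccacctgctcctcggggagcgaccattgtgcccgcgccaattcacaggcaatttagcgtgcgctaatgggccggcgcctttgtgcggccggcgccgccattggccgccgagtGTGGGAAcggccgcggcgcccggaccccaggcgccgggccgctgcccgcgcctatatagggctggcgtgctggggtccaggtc

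The matches of Hey2 begin 207 and 4 bases before the start, and those of Hes5 226 and 83 bases before it. Windows of the same kind, from 250 bases before to 50 after a start, were found for 63 genes of the pathway list. GTGGGAA, searched on both strands, was in 7 of their 85 windows (8.24%), against 6.39% of all 32817 promoter windows. These 7 belong to 7 genes, among them Hes5, Hes7 and Hey2 of the 4 target genes with a window. The fourth, Nrarp, has no match. The shorter core TGGGAA, which every GTGGGAA contains, was in 25.6% of all windows. It was in none of the 10 windows searched for 8 members (Mib2, Dll1, Dll4, Jag1, Jag2, Notch1, Notch2 and Notch3). The targets Hes1, Hey1 and Heyl had no window and could not be searched. For the list genes, windows on chromosome 18, where Mib1 lies, were left out of the search. A match is a description of the letters, and no match says only that they are not in this window.

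Levels of different genes were compared per kilobase of merged exons. In WT muscle the order ran from Notch2 (126 ± 16.2 normalized counts per kb, SD, n = 3) and Hes1 (123 ± 24.7) over Notch3 (102 ± 23.3), Mib1 (95.03 ± 6.44), Jag2 (69.7 ± 17.2), Jag1 (62.7 ± 2.25), Dll4 (57.7 ± 15.6), Mib2 (55.9 ± 2.71) and Notch1 (48.8 ± 23.9) to Dll1 (27.5 ± 5.71). The ranges of the 3 samples overlapped for all 9 pairs of neighbours in this order, so no neighbouring pair differed beyond its spread. In Dock3 KO muscle Mib1 moved from the fourth to the highest level of the 10, at 566 ± 73.1 per kb, and its lowest sample lay above every sample of Hes1, the next in order (133 ± 85.8). Among all genes tested, the level of Mib1 per kb was above 68.6% of genes in WT and above 93.2% in Dock3 KO. Notch2 was at the 74.6 percentile in WT and the 75.0 percentile in Dock3 KO, and Dll4 at the 56.1 and the 44.6 percentile.

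**Figure D4:**
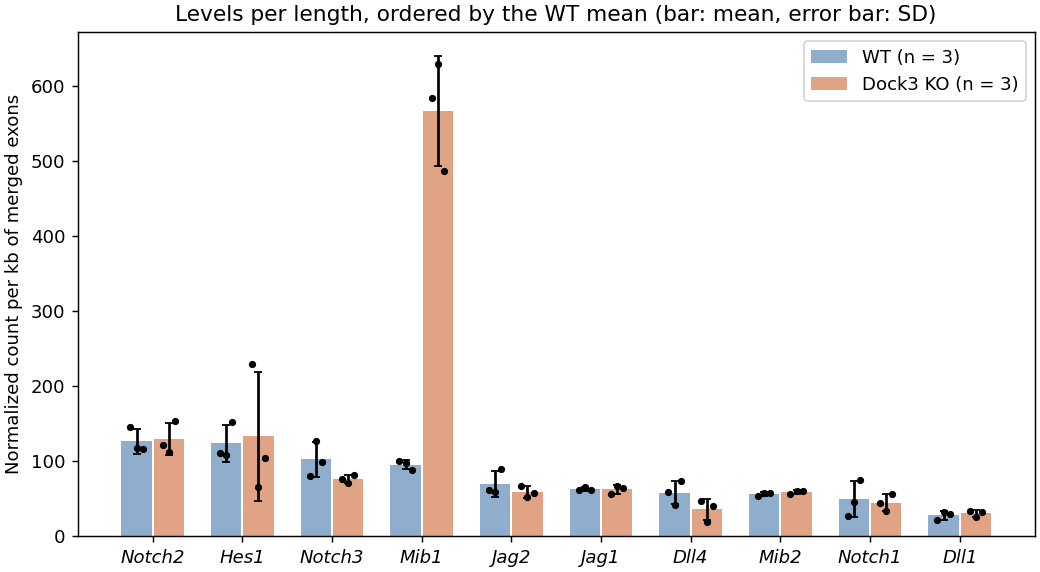
Normalized counts per kb of merged exons of the 10 genes, ordered by the WT mean, with bars for the mean of 3 samples, error bars for the SD and points for samples. Mib1 goes from 95.03 in WT to 566 in Dock3 KO and the other 9 genes have means of 133 or less in both genotypes.

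The rest of the pathway was read from a list of 77 genes by role, which includes the 10. Leaving out Mib1, 71 of the 76 other genes were tested, and 0 were past the threshold in either direction by limma, against 1.03% of all genes tested. At an unadjusted limma p under 0.05 there was 1 gene higher in Dock3 KO and 4 lower, against 10.5% of all genes tested in both directions. The median log2 difference of the 71 genes was -0.03, and 40.8% were above 0, against 49.0% of all genes tested. The groups did not overlap for 4 of the 71 genes, against 16.2% of all genes tested. Leaving out Dock3 KO replicate 1 gave 1 gene past the threshold.

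None of the 6 genes of receptor glycosylation, among them the fucosyltransferase Pofut1 and the Fringe enzymes Lfng, Mfng and Rfng, or of the 10 genes of receptor cleavage had an unadjusted limma p under 0.05. Pofut1 had means of 456 ± 29.5 for WT, against 412 ± 54.5 for Dock3 KO, and Eogt, which adds N-acetylglucosamine to the receptor, 221 ± 74.8 and 182 ± 28.5 (SD, n = 3 each). Of the cleavage genes, the ADAM proteases Adam10 and Adam17 had log2 differences of 0.01 and 0.06. Psen2, a catalytic subunit of gamma-secretase, had a log2 difference of -0.26 (limma adjusted p 0.729). Aph1c, another subunit, stood at 53.2, 54.1 and 56.8 in the WT muscles, against 23.8, 26.0 and 72.9 in the Dock3 KO muscles. Its low values were those of Dock3 KO replicates 1 and 2, the libraries rich in Gm42418 and Lars2. Aph1c has a close relative in Aph1b, with means of 140 ± 30.4 for WT, against 144 ± 23.8 for Dock3 KO (SD, n = 3 each). The part of the libraries or of this relative in the Aph1c values was not tested.

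In the nucleus, the 8 genes of the activating complex had log2 differences between -0.05 and 0.23, with 0 past the threshold. Of these 8 genes 7 were above 0, against 49.0% of all genes tested and 0 of the 6 genes of receptor glycosylation. Rbpj stood at 1124, 1075 and 1094 normalized counts in the WT muscles, against 1494, 1074 and 1141 in the Dock3 KO muscles, so only Dock3 KO replicate 1 was clearly above the WT range. Kat2b, an acetyltransferase that serves as a co-activator, had means of 1557 ± 73.0 and 1828 ± 166 (SD, n = 3 each), with no overlap and a limma adjusted p of 0.583.

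Of the 12 co-repressors tested, 3 had an unadjusted limma p under 0.05, 1 higher and 2 lower in Dock3 KO, against 10.5% of all genes tested, and 0 passed the threshold. The 2 lower ones are given here. Tle3, a Groucho-type co-repressor that works with Hes proteins, stood at 552, 577 and 620 in the WT muscles, against 312, 438 and 435 in the Dock3 KO muscles. All Dock3 KO values of Tle3 lay below WT, with a log2 difference of -0.58 and a limma adjusted p of 0.211. Bend6, a Notch antagonist that binds Rbpj, stood at 31.6 ± 2.33 for WT, against 17.1 ± 1.89 for Dock3 KO (SD, n = 3 each), also without overlap, with a log2 difference of -0.85 and a limma adjusted p of 0.448.

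Among the 12 genes of receptor turnover and inhibition, Numb, the adaptor that restrains Notch in dividing muscle progenitors, had a log2 difference of -0.21, and Itch, a ligase for the receptor, one of -0.04. Dtx4, a Deltex ligase, stood at 233, 245 and 227 normalized counts in the WT muscles, against 410, 244 and 325 in the Dock3 KO muscles (limma adjusted p 0.488). Fbxw7, which marks the Notch intracellular part for breakdown, had means of 921 ± 50.7 and 765 ± 153 (SD, n = 3 each; limma adjusted p 0.617). Of the non-canonical ligands, Dlk1 was low, at 13.2, 13.4 and 7.81 in the WT muscles, against 28.7, 20.8 and 17.4 in the Dock3 KO muscles, and Cntn1 ranged from 8.50 to 61.5 in WT alone. Dlk1 did not overlap, with a limma adjusted p of 0.561.

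**Figure D5:**
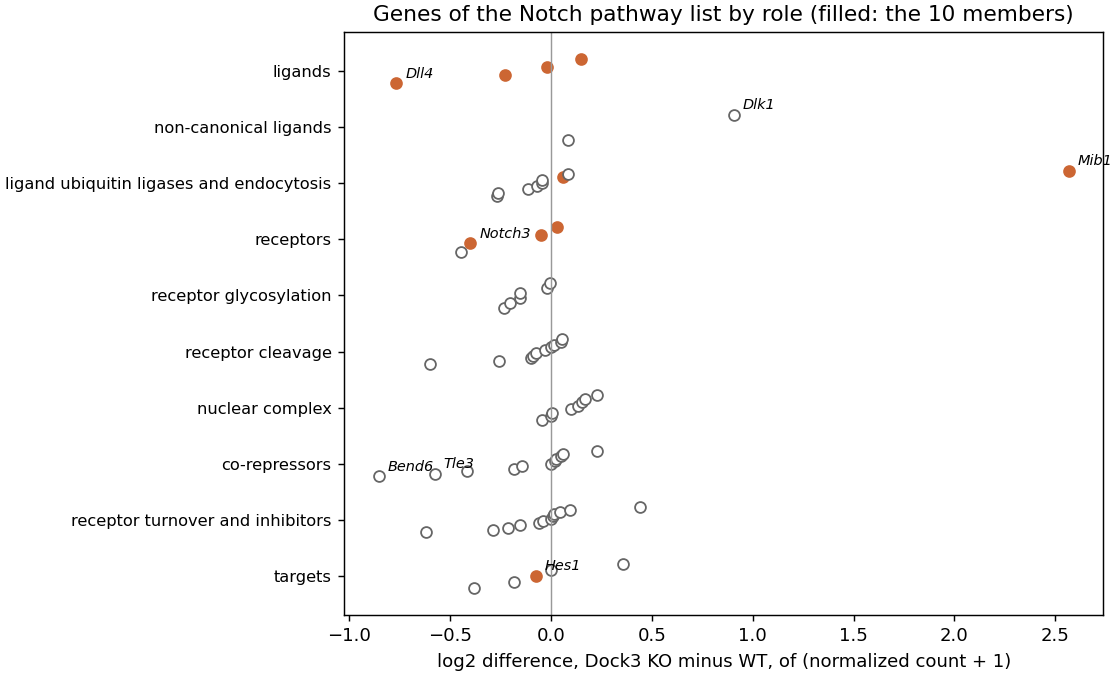
Log2 difference (Dock3 KO minus WT, of normalized count + 1) of the tested genes of the Notch pathway list (1 is not drawn), in rows by role, with filled points for the 10 members and open points for other list genes. Mib1 stands at 2.57, and the other genes drawn lie between -0.85 (Bend6) and 0.91 (Dlk1).

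Satellite cell markers were read beside these values, because Notch acts in those cells. Pax7, their defining transcription factor, stood at 71.9, 72.0 and 67.6 normalized counts in the WT muscles, against 71.0, 19.4 and 24.6 in the Dock3 KO muscles (limma adjusted p 0.412). Of the 8 markers 7 were tested, 4 of the 7 were above 0 in log2 difference and 0 passed the threshold. The summed level ran from 2064 to 2276 in WT and from 2452 to 2548 in Dock3 KO, most of it from Itga7 and Sdc4, which other muscle cells also express. Pax7, Hes1 and Heyl were all lowest in Dock3 KO replicate 2. Pax7 was named after its values were seen. Of the 8 markers, 1 was lowest in that sample and 2 were highest there, and the summed level of that sample was 2546. The part of satellite cells in the Notch values was not tested.

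Last, the protein-coding genes whose pattern was most like that of Mib1 were listed by Pearson's r of the log2 values over the 6 samples, as a description, among 13436 genes that share the same libraries. The 5 highest were Gm42688 (r = 0.9996), 2610044O15Rik8 (0.999), Prss55 (0.996), Rhbdl1 (0.996) and Hist1h4m (0.994). Such a ranking picks genes that differ between the genotypes with little spread, whatever the size. Gm42688 stood at 29.0 in WT and 46.1 in Dock3 KO on average, Rhbdl1, a rhomboid protease, at 142 and 204.5, and 2610044O15Rik8 at 213 and 617. Prss55 and Hist1h4m were listed at 0 in all WT samples. None of the 5 belongs to the pathway list. When only deviations from the group means were compared, the 5 highest were Ubald2, Slc38a4, Zfand1, Prps1 and Gm973, with r between 0.989 and 0.996.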

How the data were processed

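RNA was sequenced from 3 WT and 3 Dock3 KO muscles as ribosome-depleted, stranded, paired-end libraries, per the labels' protocols. The authors deposited 1 table of normalized counts, handled as signal since they are not whole numbers. Per the submitters' processing notes, Trim Galore 0.4.5, Salmon 0.12.0, DESeq2 1.22.1 and R 3.5.3 were used with mm10 and GRCm38; which step made the values, the annotation and the use of strand in counting are not given in the sources used here. A fold change depends on the authors' scaling, and whole reads were not recovered, so no count model was run and the depth behind a value is not known exactly.

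All 54393 identifiers matched GENCODE M21, which supplied symbols, positions (1-based) and exon lengths. Values were compared with limma 3.58.1 in R 4.3.3 (lmFit, eBayes with trend) on log2(value + 1), for genes with a mean of at least 10, without covariates, after the same steps were tested on simulated data. Fold changes of low genes are understated on this scale. Copies were searched with blastn 2.17.0 (a minimum of 95% identity, 50% of the shorter transcript and 100 bases, outside the gene itself). Tables and plots were made with Python 3.11.15, pandas 2.3.3 and matplotlib 3.10.9. The genes and lists were chosen with earlier results of these data known. Genes named are the 10 members, in each role of the list the genes past the threshold and the 2 others with the smallest p, the tested neighbours of Mib1 and the 5 genes most like it; Hey1, Heyl, Bend6, Numb, Itch, Adam10, Adam17 and the marker genes were named after their values were seen. Values of 1 list gene and 1 neighbour that this rule names are not reported here. Alternatives were pseudocounts of 0.1 and 10, no filter or a minimum mean of 50, 4 other scalings, 2 other prior variances, log2 Gm42418 as a covariate, a replicate block, samples left out, and transcript length.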

Additional observations from a re-analysis of the deposited data

How the results depend on the processing

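None of the 9 genes other than Mib1 passed the threshold under the alternatives run, and Mib1 stayed higher in Dock3 KO under all of them, with log2 differences from 2.29 to 2.67. Its value was 2.29 after rescaling to the same total, which moved the median of all genes to -0.28, 2.32 with log2 Gm42418 as a covariate and 2.36 without Dock3 KO replicates 1 and 2, a fit that leaves 1 Dock3 KO sample, assumes that it varies like the WT samples and shows nothing about stability; leaving out each sample in turn gave 2.49 to 2.67. Over all genes, 165 passed, against 104 without a trend in the prior variance, 57 with the covariate and 49 without Dock3 KO replicates 1 and 2, and between 98 (without WT replicate 4; 100 without Dock3 KO replicate 2) and 159 with each sample left out; the cause was not tested. Of the 165 genes 43.0% were higher in Dock3 KO, against 22.8% of 180 after rescaling to the same total and 32.1% of 162 with the total taken without Gm42418 and Lars2. Of the pathway list without Mib1, 0 to 1 genes passed with a sample left out. In the order of WT levels, 3 neighbouring pairs did not overlap when the longest transcript replaced merged exons.

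Of 171 alternative values of the 9 other members 25 changed sign, and of 319 values of other named pathway genes 23. After rescaling to the same total the log2 differences were -0.22 for Mib2, -0.12 for Dll1, -0.25 for Notch2, -0.17 for Cntn1, -0.047 for Kat2b and -0.12 for Rbpj. With the total taken without Gm42418 and Lars2, which moved the median to -0.11, they were -0.043 for Mib2, -0.074 for Notch2 and -0.013 for Cntn1. Quantile normalization gave 0.0061 for Jag1 and -0.00054 for Notch2, and a pseudocount of 10 gave -0.035 for Cntn1. The covariate gave 0.040 for Jag1, 0.43 for Notch1, -0.10 for Cntn1, 0.047 for Dnm1, 0.071 for Pofut1, 0.060 for Eogt, 0.53 for Aph1c and 0.17 for Hey2. Without Dock3 KO replicates 1 and 2 the values were 0.034 for Jag1, 0.32 for Notch1, 0.0061 for Dnm1, 0.045 for Pofut1, 0.41 for Aph1c and 0.052 for Hey2. With each sample left out, signs changed for Dll1 (-0.029 to 0.28), Jag1 (-0.070 to 0.056), Notch1 (-0.42 to 0.31), Notch2 (-0.10 to 0.13), Hes1 (-0.57 to 0.34), Cntn1 (-0.39 to 0.97), Notch4 (-0.80 to 0.15), Eogt (-0.44 to 0.022) and Nrarp (-0.084 to 0.73).

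The genotypes share replicate numbers 1 and 3 only. The deviations of same-numbered samples correlated at 0.065 and 0.0066 over 16031 genes. No correlation of differently numbered samples was computed beside them, so they cannot show whether same-numbered samples share more than a number. A fit with the replicate number as a block called 127 genes and 0 of the 9 members. It gave 0.047 for Jag2, 0.50 for Notch1, 0.50 for Hes1, -0.045 for Cntn1 and 0.11 for Notch4. WT replicate 4 and Dock3 KO replicate 2 have no partner of the same number. The genotype difference in that fit therefore rests only on replicates 1 and 3 of each genotype.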
